A study of Mus musculus with 6 samples.

Results

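Liver glycogen is built from glucose 6-phosphate by way of UDP-glucose, and is taken apart again to supply blood glucose between meals. The transcripts described here are 9 genes of that cycle, chosen by name: Ugp2, Gyg, Gys2, Gbe1, Pygl, Phka2, Phkg2, Ppp1r3b and Ppp1r3c. All 9 were found among the 46983 genes of the deposited count table, and all 9 passed the filter on low counts that kept 16441 genes. They were measured by RNA sequencing of whole livers from 12-week-old, chow-fed, untreated mice on a C57BL/6 background.

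The knockout mice (AEG-1DHEP) lacked AEG-1, the product of Mtdh, in hepatocytes. The control mice (AEG-1fl/fl) carried the conditional Mtdh allele without the deletion, and their titles call them WT. The driver of the deletion is not given in the sources used here. Each group had 3 library columns, but control replicate 2 held the same value as control replicate 1 for every gene. That identical pair entered as 1 sample. The comparison is therefore between knockout replicates 1, 2 and 3 and control replicates 1 and 3, and values are listed in that order. The labels describe the libraries as biological replicates from separate mice.

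Glycogen synthase and glycogen phosphorylase are switched by phosphorylation in opposite directions. Phosphorylase kinase turns phosphorylase on, while protein phosphatase 1 turns phosphorylase off and synthase on. The phosphatase is brought to the glycogen particle by targeting subunits, which bind both glycogen and the catalytic subunit. In liver, insulin and glucose favour storage, and glucagon and adrenaline favour breakdown. Much of this control acts on the proteins and is not visible in transcript levels.

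Libraries held 29557477 to 33685670 counts, where 3 counts correspond to 0.0891 to 0.101 CPM, a level in counts scaled to a common library size. That floor covers counting error only. Mtdh was at 2.90, 2.23 and 2.37 CPM in the knockout livers, against 48.0 and 54.6 CPM in the control livers, so each library went with its label. The 6 hepatocyte markers summed to 74600 to 85900 CPM in the knockout livers and 67100 to 97200 CPM in the control livers. Among 8 skeletal muscle markers the sum was 38.7, 0.815 and 1.31 CPM in the knockout livers, against 0.848 and 1.05 CPM in the control livers, so knockout replicate 1 stood apart. Adipocyte markers (7 genes) summed to 23.9, 31.8 and 11.4 CPM in the knockout livers, against 12.3 and 14.0 CPM in the control livers. Their defining genes Adipoq, Lep and Plin1 were at no more than 1 count in any library. Plin4, Cfd and Cidea were each highest in knockout replicates 1 and 2, which was not so for Fabp4. Plin4 was at 12.4, 21.2 and 6.19 CPM in the knockout livers, against 4.77 and 6.71 CPM in the control livers. Endothelial markers (4 genes) summed to 82.7 to 121 CPM in the knockout livers and 114 to 143 CPM in the control livers. For the 4 Kupffer cell markers the sums were 184 to 238 CPM in the knockout livers and 198 to 247 CPM in the control livers. Stellate cell markers (4 genes) were at 67.2 to 105 CPM in the knockout livers and 103 to 109 CPM in the control livers, and cholangiocyte markers (4 genes) at 4.59 to 6.22 CPM in the knockout livers and 7.45 to 9.58 CPM in the control livers. No marker was at 0 in all libraries. The cholangiocyte sum did not overlap between the groups, but of its markers only Sox9 was separated, and narrowly. Sox9 was at 2.64, 4.8 and 3.47 CPM in the knockout livers, against 8.04 and 4.81 CPM in the control livers. Krt19, Krt7 and Epcam each overlapped between the groups. Pecam1, Cdh5 and Rgs5 were also lower in every knockout library, where 8.72% of all genes were, though the endothelial and stellate sums overlapped. Pecam1 was at 12.7, 10.4 and 7.97 against 14.0 and 19.3 CPM, and Cdh5 at 17.5, 14.4 and 12.6 against 18.7 and 25.3 CPM. Rgs5 was at 24.6, 23.0 and 19.7 against 39.9 and 31.3 CPM. Stab2, Kdr, Lrat, Reln, Des and the Kupffer cell markers overlapped. The part of the cholangiocyte sum and of these single markers in the results was not tested. In whole tissue, fewer cells of a type and less RNA per cell cannot be told apart.

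No glycogen gene passed the test of knockout against control livers. By edgeR's quasi-likelihood test, 0 of the 9 had an adjusted p under 0.05, where 0.00608% of all 16441 genes did, a single gene, Mtdh. DESeq2 and limma-voom also called 0 of the 9. At an unadjusted p under 0.05, 1 of the 9 (Ppp1r3b) was higher in knockout livers, where 1.63% of all genes were, and 0 were lower, where 1.8% of all genes were. Of the log2 fold changes, 6 were above 0 and 3 below, where 52.1% of all genes were above 0. Their median was 0.29, beside 0.01 over all genes tested, and it was 0.10 without control replicate 1. All 9 adjusted p-values by edgeR were 1.

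Every knockout library lay above every control library for 5 of the 9 genes, namely Gyg, Gbe1, Pygl, Phka2 and Ppp1r3b, where 8.16% of all genes did so. For 1 gene, Phkg2, every knockout library lay below, where 8.72% of all genes did so. Most of these gaps were narrow: the lowest knockout library was above the highest control library by 14.4% for Ppp1r3b, 3.94% for Gbe1, 1.32% for Pygl, 1.02% for Phka2 and 0.431% for Gyg. Phkg2 was separated by 0.213%. With upper-quartile scaling in place of the trimmed mean of M values (TMM), only Gbe1, Pygl and Ppp1r3b stayed separated upwards, and with library totals Gyg, Phka2 and Phkg2 overlapped while Ugp2 did not.

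**Figure D1:**
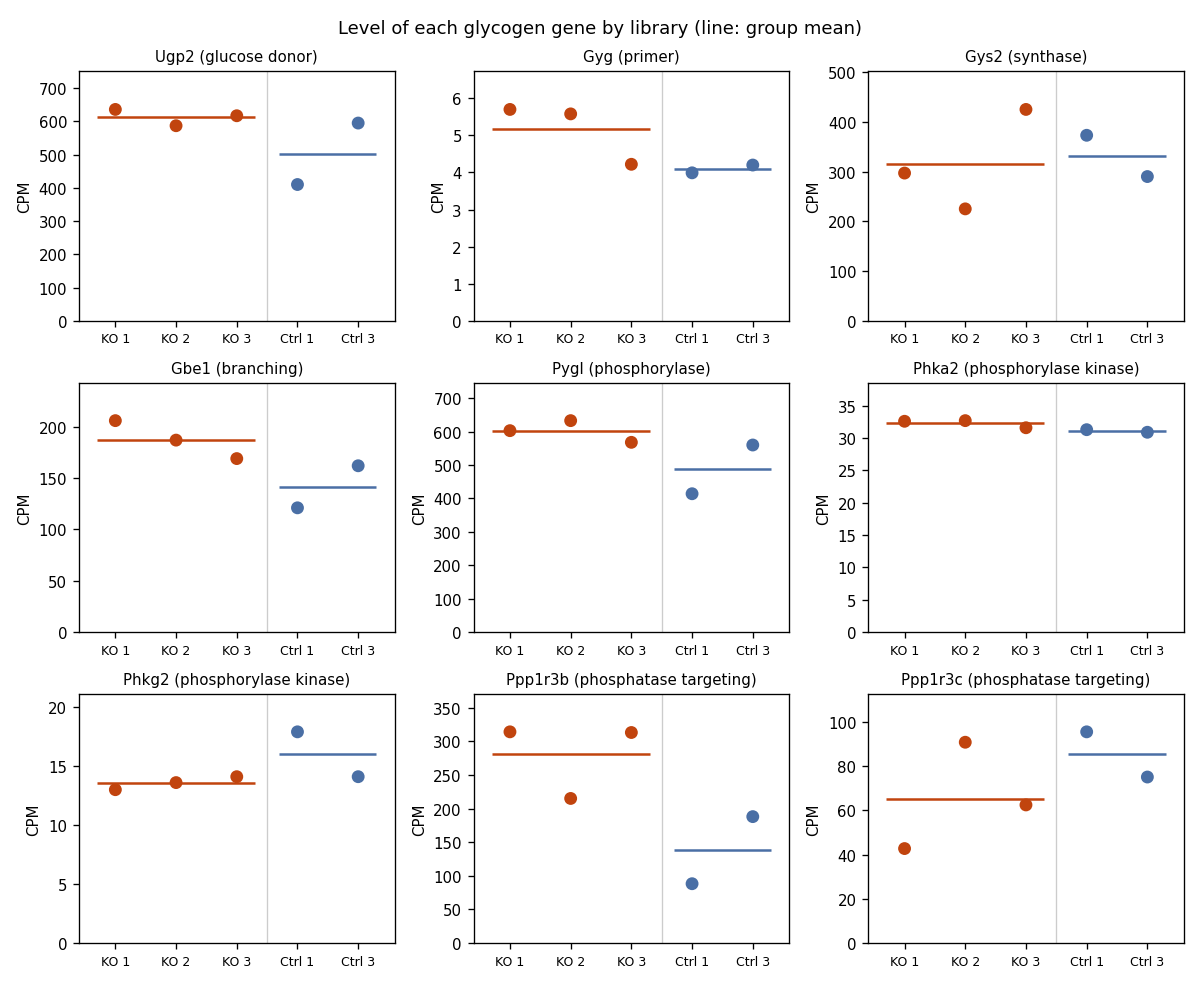
Level of each of the 9 glycogen genes in CPM (vertical axes from 0) in the 3 knockout (KO) and 2 control (Ctrl) liver libraries, with lines at the group means. Ppp1r3b shows the widest gap between the groups, with 215 CPM in the lowest knockout library and 188 CPM in the highest control library.

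Gbe1 and Pygl, enzymes whose libraries stayed separated under each scaling, and Ppp1r3c, the gene of the 9 with the widest range between knockout libraries, are shown by the sequence before their start sites. The RefSeq promoter table (GRCm38.p6) held a window of 300 bases, 250 before and 50 after the start site, for 7 of the 9 genes, with 2 windows for Ugp2. Gys2 and Ppp1r3b had no entry. Each window was searched on both strands for CACGTG, an E-box bound by clock proteins and by several glucose-responsive factors, and for TGACGTCA, the cyclic AMP response element. CACGTG occurred in 2 of the 7 genes, beginning 104 bases before the start site of Ppp1r3c and at base 9 of the RefSeq transcript of Gyg. Of all 32851 windows in the table, 7.15% held CACGTG. TGACGTCA occurred in 0 of the 7, where 1.79% of all windows held it. Both motifs contain the letters ACGT, and a match or its absence says only which letters are in these windows. The stretches printed here, 5′ to 3′, hold only bases outside the annotated exons of their own gene, and capitals mark CACGTG. Exons of other genes were not checked. That of Pygl lies before its RefSeq start site but within an intron of an annotated transcript that starts further upstream.
Ppp1r3c, chr19:36736654-36736854, minus strand: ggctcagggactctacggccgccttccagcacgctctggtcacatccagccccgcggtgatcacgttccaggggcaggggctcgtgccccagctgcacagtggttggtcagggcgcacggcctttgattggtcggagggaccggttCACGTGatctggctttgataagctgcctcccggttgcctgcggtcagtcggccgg
Gbe1, chr16:70313699-70313948, plus strand: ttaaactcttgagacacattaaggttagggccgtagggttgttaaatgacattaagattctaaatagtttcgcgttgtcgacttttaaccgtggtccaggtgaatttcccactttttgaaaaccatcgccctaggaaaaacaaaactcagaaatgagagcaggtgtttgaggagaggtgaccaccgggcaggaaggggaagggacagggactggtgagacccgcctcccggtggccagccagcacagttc
Pygl, chr12:70227684-70227933, minus strand: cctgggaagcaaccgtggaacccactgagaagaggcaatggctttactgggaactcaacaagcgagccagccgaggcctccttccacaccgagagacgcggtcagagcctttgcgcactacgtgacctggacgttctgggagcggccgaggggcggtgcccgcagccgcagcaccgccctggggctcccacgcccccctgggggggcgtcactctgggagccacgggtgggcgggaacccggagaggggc

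The first steps turn glucose 1-phosphate into a primed chain. Ugp2 (ENSMUSG00000001891, chromosome 11, 21321138 to 21371201, minus strand, GRCm38) encodes UDP-glucose pyrophosphorylase, which makes the glucose donor. It was at 636, 587 and 617 CPM in the knockout livers, against 410 and 595 CPM in the control livers. Control replicate 1 was low, and control replicate 3 lay among the knockout libraries, so the groups overlapped. The log2 fold change was 0.29 (SE 0.19, 95% interval -0.16 to 0.74). Leaving out control replicate 1 gave 0.04, and leaving out control replicate 3 gave 0.58.

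Gyg (ENSMUSG00000019528, chromosome 3, 20122084 to 20155317, minus strand) encodes glycogenin, the protein that primes a new glycogen particle with its first glucose residues. Its counts were small, at 175, 185 and 135 in the knockout livers and 127 and 124 in the control livers. On the scaled level this was 5.70, 5.58 and 4.22 CPM in the knockout livers, against 3.99 and 4.20 CPM in the control livers. Knockout replicates 1 and 2 were higher than the rest, while knockout replicate 3 was level with the controls. Its log2 fold change was 0.34 (SE 0.20, 95% interval -0.14 to 0.81).

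Glycogen synthase differed more within the groups than between them. Gys2 (ENSMUSG00000030244, chromosome 6, 142422613 to 142473109, minus strand), the liver enzyme that lengthens the chain, was at 297, 225 and 425 CPM in the knockout livers, against 373 and 290 CPM in the control livers. Both control libraries lay inside the knockout range. The ratio of the highest to the lowest knockout library was 1.89, and the spread within groups was 0.40 on the log2 scale, wider than that of 80.2% of all genes tested. The log2 fold change was -0.07 (SE 0.28, 95% interval -0.73 to 0.59), and it was 0.12 without knockout replicate 2 or without control replicate 1. Leaving out knockout replicate 3 gave -0.35, and leaving out control replicate 3 gave -0.24.

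Gbe1 (ENSMUSG00000022707, chromosome 16, 70313949 to 70569716, plus strand), the branching enzyme that adds side chains, was at 206, 187 and 169 CPM in the knockout livers, against 121 and 162 CPM in the control livers. All 3 knockout libraries were above both control libraries, knockout replicate 3 by little. Its mean was 187 ± 18.4 CPM in knockout livers, against 142 ± 29.2 CPM in control livers (SD, n = 3 and n = 2). Its log2 fold change was 0.40 (SE 0.17, 95% interval -0.01 to 0.82), with 0.20 without control replicate 1 and 0.63 without control replicate 3. Its upstream sequence, shown above, held neither motif.

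On the breakdown side, Pygl (ENSMUSG00000021069, chromosome 12, 70190811 to 70231488, minus strand) encodes liver glycogen phosphorylase, which releases glucose 1-phosphate from chain ends. It was at 603, 633 and 568 CPM in the knockout livers, against 414 and 560 CPM in the control livers. The knockout libraries were close together and just above control replicate 3, with control replicate 1 well below. Knockout over control, the log2 fold change was 0.30 (SE 0.17, 95% interval -0.11 to 0.72), with 0.10 without control replicate 1 and 0.54 without control replicate 3.

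Ugp2, Gbe1 and Pygl all had their lowest level in control replicate 1. The ratio of the highest to the lowest knockout library was 1.08 for Ugp2, 1.22 for Gbe1 and 1.11 for Pygl, and the ratio of control replicate 3 to control replicate 1 was 1.45, 1.34 and 1.35 for the same genes. For Gys2 that ratio of the controls was 0.778. The ratio of Pygl to Gys2, on levels per length, was 1.41, 1.95 and 0.928 in the knockout livers and 0.771 and 1.34 in the control livers, and the groups overlapped.

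Phosphorylase kinase, the enzyme that activates phosphorylase, is built of regulatory and catalytic subunits. Phka2 (ENSMUSG00000031295, chromosome X, 160502166 to 160598878, plus strand), its liver alpha subunit, was at 32.6, 32.7 and 31.6 CPM in the knockout livers, against 31.3 and 30.9 CPM in the control livers. The libraries were nearly level, with a spread within groups of 0.02 on the log2 scale, and only 0.347% of all genes had a smaller one. Its log2 fold change was 0.05 (SE 0.10, 95% interval -0.17 to 0.28), the narrowest interval of the 9.

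Phkg2 (ENSMUSG00000030815, chromosome 7, 127573340 to 127583307, plus strand), the liver catalytic subunit, was at 13.0, 13.6 and 14.1 CPM in the knockout livers, against 17.9 and 14.1 CPM in the control livers. Only control replicate 1 stood out, on the high side. Its log2 fold change was -0.24 (SE 0.14, 95% interval -0.58 to 0.09), with -0.06 without control replicate 1 and -0.40 without control replicate 3. Its exons share 876 bases, 21.9% of its exon length, with Ccdc189 on the opposite strand, a gene with at most 30 counts in any library. Since the strand setting of the counting is not given in the sources used here, reads there cannot be assigned to one gene or the other.

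Among the 9 genes, the targeting subunits had the widest spread within groups. Ppp1r3b (ENSMUSG00000046794, chromosome 8, 35375741 to 35388124, plus strand) encodes GL, the main subunit that brings protein phosphatase 1 to liver glycogen. It was at 314, 215 and 313 CPM in the knockout livers, against 88.3 and 188 CPM in the control livers. Knockout replicates 1 and 3 were high and alike, control replicate 1 was by far the lowest, and knockout replicate 2 and control replicate 3 lay near each other. It averaged 280 ± 57.0 CPM in knockout livers, against 138 ± 70.2 CPM in control livers (SD, n = 3 and n = 2), a fold of 2.03. The log2 fold change was 1.02 (SE 0.34, 95% interval 0.20 to 1.85), with an unadjusted p of 0.022 and an adjusted p of 1 by edgeR, and an adjusted p of 0.548 by DESeq2. It was 0.58 without control replicate 1 and 1.67 without control replicate 3, so its size rested on which control library was used. Over all settings tried, its adjusted p was 0.33 or more.

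Ppp1r3c (ENSMUSG00000067279, chromosome 19, 36731737 to 36736653, minus strand) encodes PTG, a targeting subunit found in several tissues. It was at 42.7, 90.7 and 62.4 CPM in the knockout livers, against 95.4 and 75.0 CPM in the control livers. Knockout replicate 2 lay among the controls, and knockout replicate 1 was the lowest. Its log2 fold change was -0.38 (SE 0.30, 95% interval -1.10 to 0.34), and it was -0.70 when knockout replicate 2 was left out. Leaving out knockout replicate 1 gave -0.15, and leaving out control replicate 1 gave -0.21. Without knockout replicate 2, or without control replicate 3, the knockout libraries left all lay below the control libraries left, as they did for 16.4% and 25.9% of all genes under those settings.

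Knockout replicates 1 and 3 were the highest libraries for Ppp1r3b and the lowest for Ppp1r3c, and control replicate 1 was the lowest for Ppp1r3b and the highest for Ppp1r3c. On levels per length, the ratio of Ppp1r3b to Ppp1r3c was 4.75, 1.53 and 3.24 in the knockout livers, against 0.598 and 1.62 in the control livers. Control replicate 1 was the only library with more Ppp1r3c than Ppp1r3b, and the groups overlapped at knockout replicate 2. The ratio of Ppp1r3b to Gys2, chosen after the members' values were seen and given with no test, was 0.667, 0.603 and 0.465 in the knockout livers, against 0.150 and 0.409 in the control livers. Those values did not overlap.

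Dividing the scaled levels by exon length in kilobases (RPKM) puts the genes in order. Averaged over the 5 libraries, Ugp2 was highest at 185 RPKM (133 to 207), followed by Pygl at 145 (108 to 165) and Gys2 at 121 (84.6 to 160). These 3 ranges overlapped between neighbours. Ppp1r3b followed at 53.1 RPKM (21.0 to 74.6), below the lowest Gys2 value, then Gbe1 at 31.6 (22.6 to 38.4) and Ppp1r3c at 26.9 (15.7 to 35.1), again with overlap between neighbours. Gbe1 averaged 35.0 RPKM and Ppp1r3c 24.0 RPKM in the knockout livers, while in the control livers Gbe1 averaged 26.5 RPKM and Ppp1r3c 31.3 RPKM, the reverse order. Phka2 at 5.24 RPKM (5.09 to 5.39), Phkg2 at 3.63 (3.24 to 4.48) and Gyg at 2.02 (1.70 to 2.43) came last, each with a range apart from its neighbours. Phka2 and Phkg2 were thus present at a small fraction of the level of Pygl, the transcript of their substrate enzyme.

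The liver forms made up nearly all transcripts of synthase and phosphorylase. Gys2 was 99.5% to 99.7% of the summed RPKM of Gys1 and Gys2 in the knockout livers, and 99.5% to 99.6% in the control livers. Pygl was 99.0% to 99.5% of the sum of Pygl, Pygb (the brain form) and Pygm (the muscle form) in the knockout livers, and 98.9% to 99.1% in the control livers. The alpha subunit was less exclusive: Phka2 was 76.9% to 78.4% of Phka1 and Phka2 together in the knockout livers, and 76.3% to 79.1% in the control livers. Pygm was at 2.21, 0.603 and 0.375 CPM in the knockout livers, against 0.754 and 0.677 CPM in the control livers. Its highest value fell in knockout replicate 1, the library with the muscle markers. The muscle targeting subunit Ppp1r3a had 15, 3 and 0 counts in the knockout livers, against 3 and 1 in the control livers. Gys1, Phka1 and Phkg1 did not single out that library. Gys1 was at 2.87 CPM there and 2.83 CPM in control replicate 1, and Phka1 was highest in knockout replicate 2 (10.1 CPM). Phkg1 had 13, 12 and 3 counts in the knockout livers, against 5 and 4 in the control livers.

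Among the 7 targeting subunits Ppp1r3a to Ppp1r3g, Ppp1r3b and Ppp1r3c together held 95% to 97.4% of the summed RPKM in the knockout livers and 96.4% to 96.7% in the control livers. Ppp1r3b alone held 78.7%, 58.9% and 72.6% in the knockout livers, against 36.1% and 59.7% in the control livers. The sum over the 7 was 94.7, 86.6 and 102 RPKM in the knockout livers, against 58.2 and 74.7 RPKM in the control livers, without overlap. It is given with no test. Ppp1r3b, which was separated by itself, was the largest part of that sum in every library but control replicate 1. Ppp1r3g, a subunit tied to the fasting and feeding cycle in mouse liver, was at 4.36, 0.935 and 5.28 CPM in the knockout livers, against 1.35 and 1.32 CPM in the control livers. Knockout replicates 1 and 3 were high and knockout replicate 2 was the lowest of all. Its log2 fold change was 1.4 (SE 0.68), and that of Ppp1r3e 0.53 (SE 0.26). Ppp1r3a, Ppp1r3d and Ppp1r3f did not pass the filter on low counts.

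**Figure D2:**
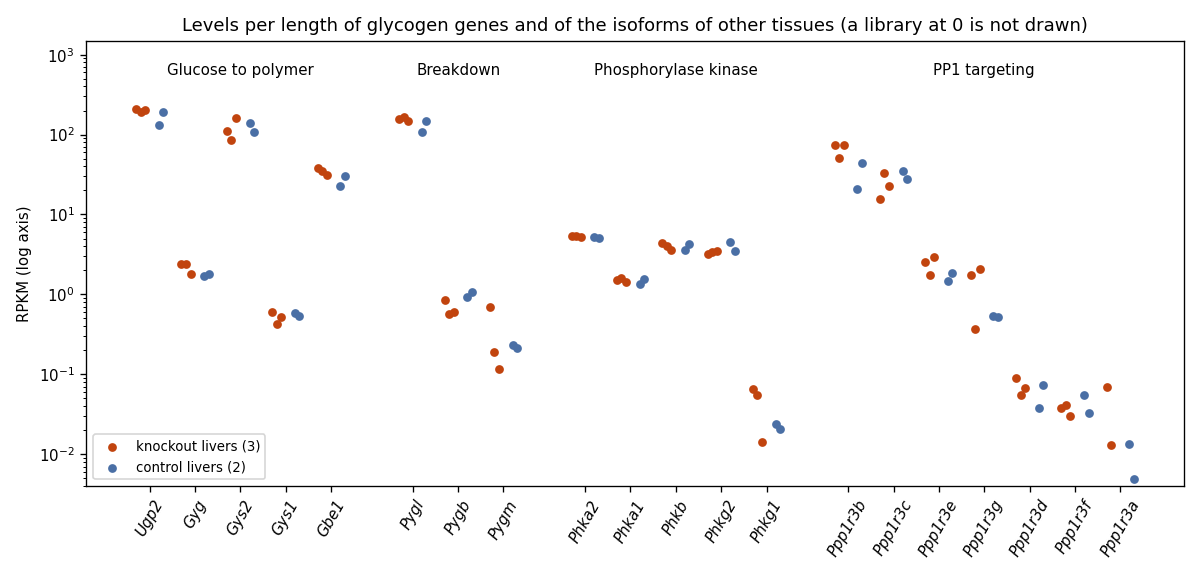
Level per length (RPKM, log axis) of the glycogen genes, of the isoforms of other tissues and of all 7 targeting subunits, with 1 point per library for the knockout and control livers. The liver forms Gys2 and Pygl lie far above Gys1, Pygb and Pygm, while Phka1 lies within a few fold of Phka2.

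Of 38 further genes of glycogen metabolism and its control, 35 passed the low-count filter and 0 passed the edgeR test, with 0 called by DESeq2 and by limma-voom. Among the 35, 26 log2 fold changes were above 0 and 9 below, where 52.1% of all genes were above 0, and their median was 0.07, beside 0.01 over all genes. At an unadjusted p under 0.05 there was 1 higher gene, Nhlrc1, where 1.63% of all genes were higher, and 1 lower gene, Pygb, where 1.8% of all genes were lower. Every knockout library lay above both controls for 3 of the 35, Nhlrc1 and Slc2a2 among them, where 8.16% of all genes did so. For 1 of the 35, Pygb, every knockout library lay below, where 8.72% of all genes did so.

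Nhlrc1 encodes malin, a ubiquitin ligase that works with laforin in glycogen quality control. It was at 1.73, 3.14 and 3.44 CPM in the knockout livers, against 1.00 and 1.52 CPM in the control livers, resting on 53, 104, 110, 32 and 45 counts in library order. Knockout replicate 1 was close to control replicate 3, and the log2 fold change was 1.13 (SE 0.38, adjusted p of 1 by edgeR). Laforin itself, Epm2a, had a log2 fold change of 0.03 (SE 0.24). Pygb was at 4.10, 2.75 and 2.91 CPM in the knockout livers, against 4.49 and 5.22 CPM in the control livers, and its log2 fold change was -0.58 (SE 0.23).

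Pgm1, the phosphoglucomutase that links glucose 1-phosphate to glucose 6-phosphate, had a log2 fold change of 0.10 (SE 0.12), less than its standard error. Lysosomal Gaa, the acid glucosidase, had 0.06 (SE 0.21), and Stbd1, which binds glycogen for its delivery to lysosomes, had -0.03 (SE 0.17). The catalytic phosphatase subunits Ppp1ca, Ppp1cb and Ppp1cc lay between -0.06 and 0.07, and the 5 kinase genes that can phosphorylate synthase (Gsk3a, Gsk3b, Prkaca, Prkaa1 and Prkaa2) between 0.02 and 0.15. Receptors and signal genes Gcgr, Insr, Akt2 and Adra1b lay between -0.08 and 0.15.

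At glucose 6-phosphate, glycogen metabolism meets glucose entry and release. The spread within groups was wider than that of 97.6% of all genes tested for G6pc, and of 50.4% for Slc2a2. G6pc, the catalytic subunit of glucose 6-phosphatase, was at 726, 372 and 1230 CPM in the knockout livers, against 202 and 692 CPM in the control livers. Control replicate 1 was the lowest and knockout replicate 3 the highest, with overlap and a log2 fold change of 0.79 (SE 0.63). Slc2a2, the glucose transporter GLUT2, was at 539, 513 and 573 CPM in the knockout livers, against 339 and 475 CPM in the control livers. All knockout libraries were above both controls, with a log2 fold change of 0.41 (SE 0.18, 95% interval -0.02 to 0.85).

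**Figure D3:**
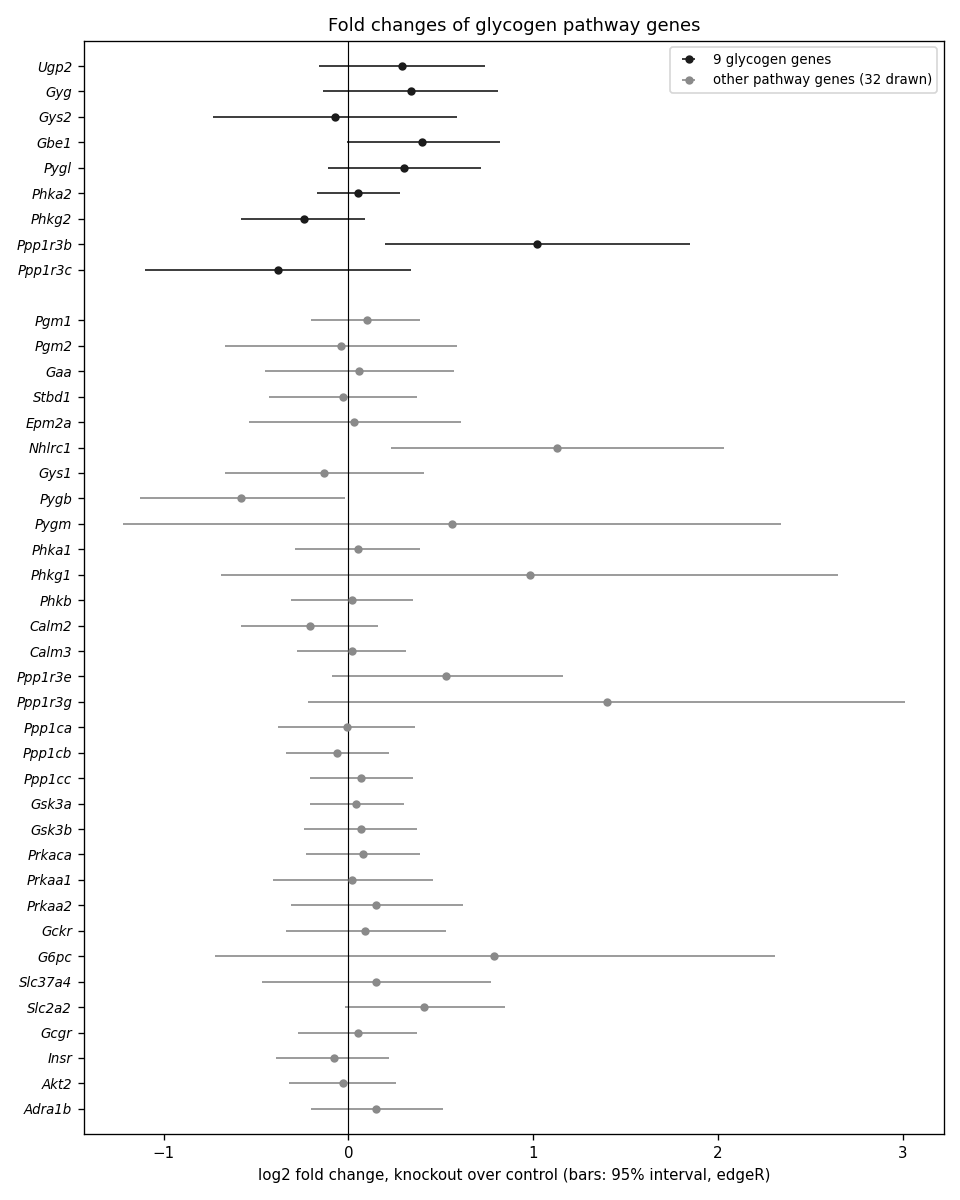
Log2 fold changes, knockout over control livers, with 95% intervals from the edgeR fit, for the 9 glycogen genes (black) and 32 other genes of the pathway (grey). Among the 9, only the interval of Ppp1r3b (0.20 to 1.85) lies clear of 0, and after adjustment over all genes it does not pass.

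Genes that follow feeding and the time of day differed between these same libraries, and their part in the glycogen values was not tested. Pklr, a pyruvate kinase raised by carbohydrate feeding, was at 602, 649 and 736 CPM in the knockout livers, against 179 and 512 CPM in the control livers. Control replicate 1 was the lowest library here too, as for Ugp2, Gbe1, Pygl, Ppp1r3b, G6pc and Slc2a2, and the log2 fold change was 0.94 (SE 0.41). Other feeding-raised genes differed from this. Control replicate 1 was above control replicate 3 for Pnpla3 (3.05 against 1.02 CPM) and Mlxipl (441 against 376 CPM). It was nearly level with control replicate 3 for Fasn (586 against 601 CPM), and Srebf1 was lowest in knockout replicate 2 (346 CPM). Of 6 feeding-raised genes, 6 had log2 fold changes above 0 (median 0.67), and of 6 fasting-raised genes 5 did (median 0.20), with 0 called by edgeR. At an unadjusted p under 0.05, Fasn and Ppargc1a were higher and Igfbp1 was lower, where 1.63% of all genes were higher and 1.8% lower. DESeq2 called 1 of these 12, Fasn, with an adjusted p of 4.57e-09, and 19 of all 16441 genes.

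Knockout replicate 2 differed from its group in clock genes. Arntl, the clock activator BMAL1, was at 0.912, 6.22 and 0.687 CPM in the knockout livers, against 2.45 and 2.54 CPM in the control livers. Per1, a clock repressor, was at 42.7, 10.5 and 48.9 CPM in the knockout livers, against 20.0 and 32.3 CPM in the control livers. Knockout replicate 2 was thus the highest library for Arntl and the lowest for Per1. It was also the lowest knockout library for Ugp2, Gys2, Ppp1r3b, Ppp1r3g, G6pc and Slc2a2. It was the highest knockout library for Pygl and Ppp1r3c, and by little for Phka2 (32.7 against 32.6 CPM in knockout replicate 1). For Gyg, Gbe1 and Phkg2 it lay between the other knockout libraries. The control libraries differed in clock genes as well. Control replicate 1 was the highest library for Nr1d1 (170 CPM, against 63.0 in control replicate 3) and Dbp (142 against 65.1 CPM). For Cry1 it was the lowest library (3.49 CPM, against 7.66 in control replicate 3). None of the 12 clock genes passed the edgeR test or was called by DESeq2, and at an unadjusted p under 0.05 there were 0.

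**Figure D4:**
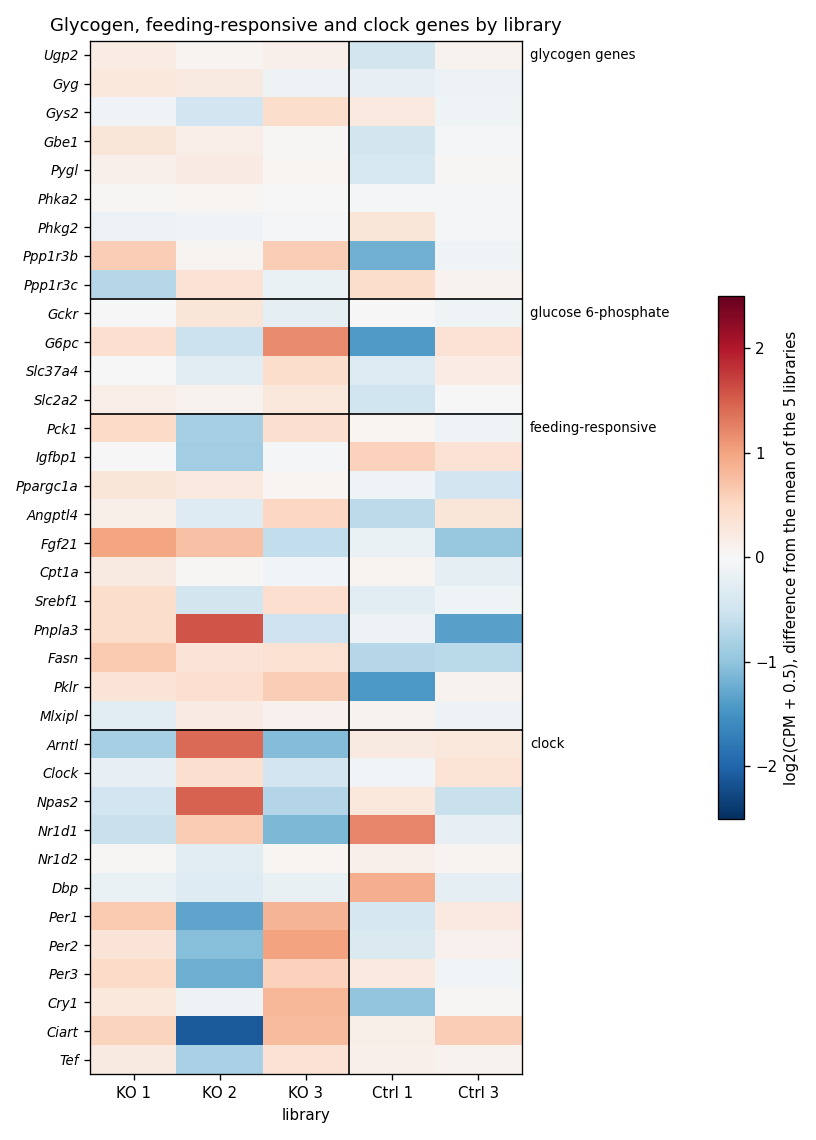
Log2(CPM + 0.5) of each gene in the 3 knockout (KO) and 2 control (Ctrl) libraries, as the difference from the mean of the 5 libraries (colour scale), for glycogen, glucose 6-phosphate, feeding-responsive and clock genes. Control replicate 1 is low for Ppp1r3b, G6pc and Pklr, and knockout replicate 2 is high for Arntl and low for Per1.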

How the data were processed

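The deposited table gives raw counts of reads for each gene and each gene's summed exon length. For its making, Trimmomatic 0.33, Subread 1.4.6-p4, FastQC and featureCounts 1.4.6-p4 are listed, with builds mm10 and GRCm38, per the submitters' processing notes. The sources used here do not give the strand setting, annotation release or handling of reads with several matches. Libraries were made with the Illumina TruSeq RNA kit, per the labels' protocols. Symbols came from GENCODE vM21, which holds 46488 of 46983 identifiers.

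Genes were kept by filterByExpr, libraries were scaled by TMM, and groups were compared with edgeR 4.0.16 (quasi-likelihood F test, two-sided, non-robust prior, R 4.3.3), with Benjamini-Hochberg adjustment over the 16441 kept genes and a threshold of 0.05. Standard errors were derived from the F statistic, and intervals are 95% and unadjusted. RPKM is TMM-scaled CPM per kilobase of exon. DESeq2 1.42.0, limma 3.58.1, other filters and scalings, all 6 columns, left-out libraries and a replicate block were tried as alternatives.

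The test was first tried on simulated data.

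Transcripts of the 9 genes were compared with those of all other genes by BLAST+ 2.17.0. The 1 match of at least 95% identity over at least 100 bases was the overlap of Phkg2 with Ccdc189.

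Members and lists were chosen with earlier results of these data known. All 9 members are named, and of the other lists any gene that passed the filter could be named. That the control columns 1 and 2 are identical was checked on the table. Some genes of these lists are counted but not reported here by name.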

Additional observations from a re-analysis of the deposited data

How the results depend on the processing

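No alternative called any of the 9 glycogen genes or of the 38 further pathway genes. The number of genes called over all genes, 1 with the reported settings, was 3 without a low-count filter, 19 by DESeq2, 0 with the replicate block, and 1 to 6 when a library was left out, with 6 without control replicate 3. With the replicate block the log2 fold change of Mtdh was -4.28 (adjusted p of 0.0517 by edgeR), and it was -4.48 to -4.26 when a library was left out. The median of the 9 glycogen genes, 0.29, was 0.10 to 0.38 when a library was left out, with 0.10 without control replicate 1, and 0.26 to 0.35 otherwise. Gys2 changed sign, with -0.35 to 0.12 when a library was left out and 0.11 with the replicate block. The count of glycogen genes with all knockout libraries above the controls was 3 of 9 with upper-quartile scaling, where 6.74% of all genes did so, and 5 to 6 when a library was left out, where 12.9% to 24.9% did. The count below was 0 with library totals, where 6.71% of all genes lay below, and 1 to 2 when a library was left out, where 13.9% to 25.9% did. These last 2 counts were recomputed in a step added after the data were seen. Same-numbered libraries deviated together by r = 0.076 and 0.159 across 16441 genes, over 2 pairs. Knockout replicate 2 with control replicate 1 gave r = 0.102. With 2 control libraries, their deviations from the group mean are exact opposites, so these values cannot settle whether the mice were paired. The numbers were not taken to pair the mice. The other log2 fold changes of the 9 genes kept their sign and stayed short of the threshold under each alternative. With only 1 control library left, it is assumed to vary like the knockout libraries.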
